A study of Homo sapiens with 6 samples.

Results

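Desmosomes are cell junctions that tie the keratin filaments of neighbouring epithelial cells together. Their cadherins, the desmogleins and desmocollins, cross the membrane and bind the cadherins of the next cell. Inside the cell the cadherin tails bind plakoglobin and the plakophilins, and desmoplakin links these proteins to keratin. In mammary gland and skin the junction gives the epithelium its resistance to pulling, and the desmoglein and desmocollin isoforms differ between basal and simple epithelia.

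The genes described here are the 10 desmosome genes DSP, DSG2, DSG3, DSC2, DSC3, PKP1, PKP2, PKP3, JUP and PERP, chosen by name from the 19198 genes of the expression table. All 10 were listed, and 9 had the mean of at least 10 normalized counts that was required for testing. PKP1 did not. Normalized counts are reads per gene divided by a size factor of the library, and they are not divided by gene length.

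RNA-Seq had been carried out on MCF10A, an immortalized but non-tumorigenic human mammary epithelial line, in 6 libraries. In 3 libraries the cells had been kept in 5% horse serum plus 4 additives, and these libraries are called the controls. The glucocorticoid hydrocortisone was at 0.5 µg/ml and cholera toxin, which raises cyclic AMP, at 100 ng/ml. EGF was at 20 ng/ml and insulin at 10 µg/ml. In the other 3 the cells had the same serum and none of these additives, and these are called the depleted libraries. The study used this medium to bring about an epithelial to mesenchymal transition with no TGFβ added. All 4 additives were removed together, so insulin, EGF, cholera toxin and hydrocortisone cannot be told apart in any value below. Serum factors were present in both conditions. Time without growth factors is not given in the labels. Nor is it stated whether the replicates came from separate cultures, so that p-values measure only the spread between these libraries, which may be technical.

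Libraries held from 7472418 to 28672630 reads on genes, and 3 reads, taken as the floor of detection, equalled 1.76 to 6.71 normalized counts (counting error only). The labels call the cells luminal ductal. The luminal markers, KRT8 and KRT18 among them, summed to 6426 to 17512 normalized counts in controls, while ESR1 was at 205.5, 181.0 and 63.9 and KRT19 at 214.3, 111.3 and 124.0. The 6 basal markers, among them KRT5 and KRT17, summed to 49597 to 69171 in the same libraries. Of these basal markers, KRT14 was at only 264.4, 58.6 and 12.8 in controls and TP63 at 270.7, 359.1 and 1615. Markers of both kinds were thus detected under the luminal label, with high and low members in each. Depleted replicate 1 stood apart from depleted replicates 2 and 3 and was the lowest depleted library for all 9 tested desmosome genes. Fold changes without it are given below for the 9 tested desmosome genes, and not for the genes of the other lists.

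Growth factor depletion was accompanied by lower DSG3 and DSG2, the desmogleins, and by no called rise of any desmosome gene. By limma, with Benjamini-Hochberg adjustment over 16988 genes, 2 of the 9 tested members passed an adjusted p of 0.05, both lower, where 1.97% of all tested genes were called lower and 6.33% were called in either direction. In 4 of the 9 members (DSP, DSG2, DSG3 and DSC2) every depleted library lay below every control, against 12.1% of all genes tested. Without depleted replicate 1 only DSG3 was called, where 1.51% of all genes were called lower. The median log2 fold change of the 9 members was -1.02, and that of all tested genes was -0.03. The member at the median was PKP3, whose value was -0.61 without depleted replicate 1. An unadjusted p under 0.05 was reached by 5 of the 9 members and by 3400 of the 16988 genes. In bulk RNA, fewer cells that express a gene and less RNA per cell cannot be told apart.

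**Figure D1:**
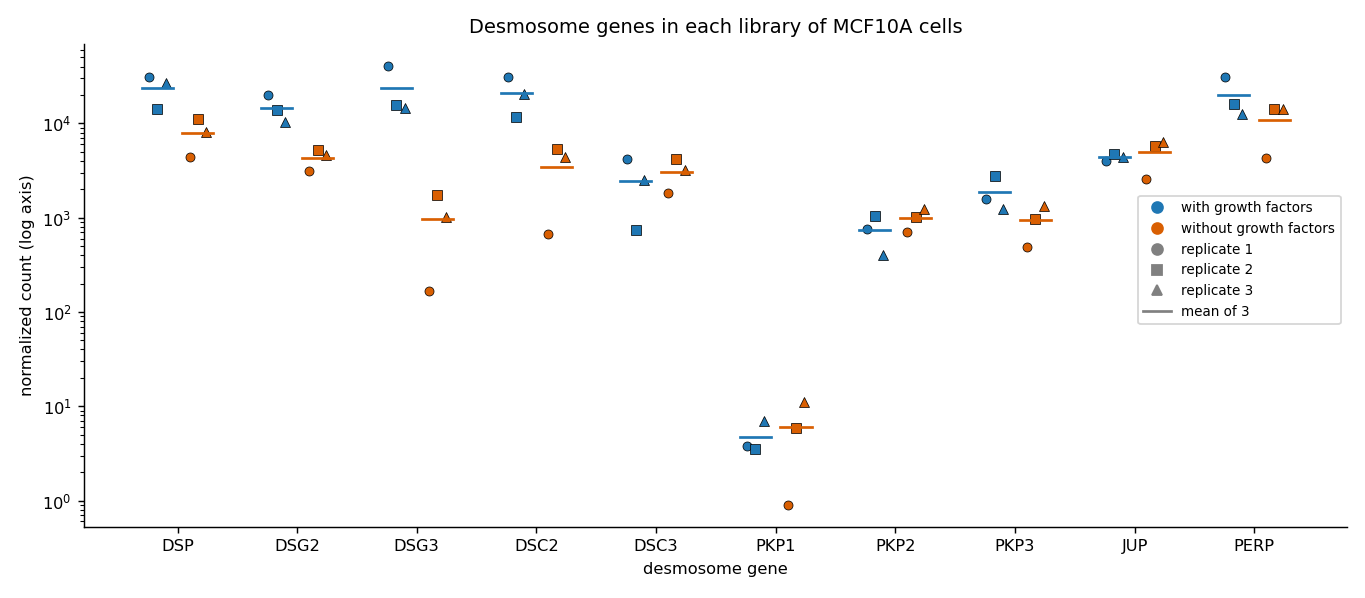
Normalized count (log axis) of each desmosome gene in each library, with the control libraries in blue, the depleted libraries in orange, a symbol for each replicate number and a line at the mean of 3. DSP, DSG2, DSG3 and DSC2 have no overlap between conditions, and depleted replicate 1 (circle) is lowest of the depleted libraries for every tested gene.

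DSG3, a desmoglein of basal layers and the antigen of pemphigus vulgaris, had the most negative log2 fold change of the members. It was measured at 40670, 15645 and 14515 normalized counts in controls and at 167.5, 1744 and 1026 in depleted libraries, or 23610 ± 14785 against 979 ± 789 (SD, n = 3 each). The groups were far apart, with the highest depleted library well under the lowest control. DSG3 fell by 4.97 on the log2(normalized count + 1) scale (SE 0.82, 95% interval -6.83 to -3.10, limma adjusted p = 0.00965), which is 31.3-fold lower. A log2 fold change as low was found in 36 of 16988 genes, or 0.212%. Without depleted replicate 1 the value was -3.97 (adjusted p = 0.00734, limma). DSG3 (ENSG00000134757.4) lies on the plus strand of chromosome 18 (hg38, 31447741 to 31478702) and its canonical transcript has 16 exons.

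DSG2, the desmoglein found in nearly all epithelia and in heart, was also called. Its normalized counts were 19918, 13893 and 10229 in controls and 3119, 5236 and 4646 in depleted libraries, or 14680 ± 4892 against 4334 ± 1092 (SD, n = 3 each). No library of one condition reached the range of the other. DSG2 fell by 1.74 on the log2 scale (SE 0.38, 95% interval -2.60 to -0.88, limma adjusted p = 0.0307), a 3.34-fold difference. This call depended on the libraries used. Leaving out depleted replicate 1 gave -1.52 on the log2 scale (adjusted p = 0.0900, limma), and leaving out 1 library gave -1.97 to -1.49 in all, with a call only where control replicate 3 was the one left out. DSG2 (ENSG00000046604.11) lies on the plus strand of chromosome 18 (31498177 to 31549008) in 15 exons.

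DSC2 encodes the widely expressed desmocollin. It stood at 31148, 11797 and 20543 normalized counts in controls and at 675.5, 5385 and 4365 in depleted libraries, or 21163 ± 9690 against 3475 ± 2478 (SD, n = 3 each). The groups did not overlap, but replicates within each condition differed widely, above all depleted replicate 1. The log2 fold change was -2.96 (SE 0.76, 95% interval -4.71 to -1.22), and the limma adjusted p of 0.0594 missed the threshold. Without depleted replicate 1 it was -2.02 (adjusted p = 0.0615, limma). DSC2 (ENSG00000134755.13) is encoded on the minus strand of chromosome 18 (31058840 to 31102522, 16 exons).

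DSC3, the desmocollin of basal and stratified epithelia, gave no call. Its normalized counts were 4139, 734.1 and 2510 in controls and 1836, 4206 and 3168 in depleted libraries, with the groups overlapping. The estimated change was 0.56 on the log2 scale (SE 0.61, adjusted p = 0.689 by limma). Its 95% interval ran from -0.84 to 1.96, which leaves room for a change in either direction. Without depleted replicate 1 the estimate was 0.89 (adjusted p = 0.577, limma). DSC3 (ENSG00000134762.15) is the outermost gene of the cluster on the minus strand (chromosome 18, 30989365 to 31042815, 16 exons).

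**Figure D2:**
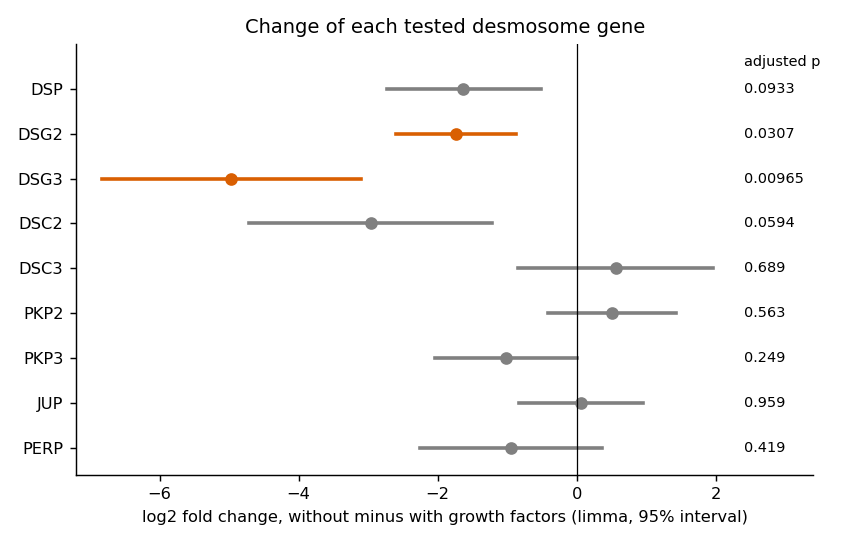
Log2 fold change of each tested desmosome gene, depleted minus control, with the 95% interval as a bar and the limma adjusted p at the right. DSG2 and DSG3 (orange) passed the threshold, and the intervals of DSC3, PKP2, JUP and PERP cross 0.

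The cadherin isoforms were also compared as ratios within each library. The log2 ratio of DSG3 to DSG2 was 1.03, 0.17 and 0.50 in controls and -4.21, -1.59 and -2.18 in depleted libraries, a difference of -3.23. The log2 ratio of DSC3 to DSC2 was -2.91, -4.00 and -3.03 in controls and 1.44, -0.36 and -0.46 in depleted libraries, a difference of 3.52. In both ratios the conditions did not overlap. A two-sided exact permutation test of 3 libraries against 3 cannot give a p below 0.1, and both ratios reached p = 0.1 (exact permutation test, 0.175 adjusted over the 7 ratios tested). Without depleted replicate 1 the differences were -2.45 and 2.91. The ratio of DSG3 to DSC3, the isoforms of basal layers, differed by -5.53 (exact permutation test, p = 0.1, adjusted 0.175), and by -4.86 without depleted replicate 1.

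Compared per kilobase of canonical transcript, the 4 cadherins summed to 13858, 6297 and 6394 normalized counts per kb in controls and to 874, 2223 and 1771 in depleted libraries. DSG3 made up 52.6%, 44.5% and 40.7% of this sum in controls and 3.43%, 14.1% and 10.4% in depleted libraries. DSC3 made up 3.94%, 1.54% and 5.18% in controls and 27.7%, 25% and 23.6% in depleted libraries. With transcript length, DSG3 had the largest share in each control and DSG2 in each depleted library, at 62.6%, 41.3% and 46.0%. The share of DSC2 depends on the length used, since its transcript has 12331 bases and its coding part 2703. With coding length DSC2 held 37.6% of the sum in controls and 27.9% in depleted libraries on average, and with transcript length 19.8% and 15.3%. With coding length DSC2 had the largest share in control replicate 3 (46.3% against 29.5% for DSG3) and in depleted replicates 2 and 3 (35.0% and 35.7%, against 27.4% and 30.6% for DSG2), so the leading cadherin depended on the length. DSG3 still held the smallest mean share in depleted libraries, at 6.90%.

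**Figure D3:**
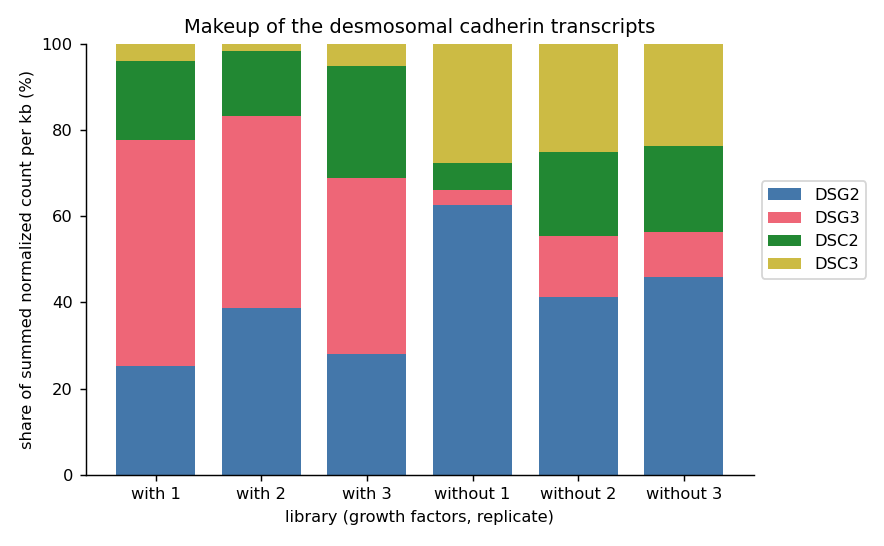
Share of each desmosomal cadherin (percent) in the summed normalized counts per kb of transcript, with 1 bar for each library. DSG3 holds 40.7% to 52.6% in controls and 3.43% to 14.1% in depleted libraries, and DSC3 1.54% to 5.18% against 23.6% to 27.7%.

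The desmosomal cadherin genes form a cluster on chromosome 18, in which 7 coding genes lie within 559.6 kb, the desmocollins on the minus strand and the desmogleins on the plus strand. DSC2 and DSC3 are neighbours, as are DSG2 and DSG3, yet the log2 fold changes were -2.96 and 0.56 in the first pair and -1.74 and -4.97 in the second. DSG4, a desmoglein of hair, lies between them and was near the floor, at 7.5, 6.4 and 3.0 normalized counts in controls and 0, 2.6 and 2.2 in depleted libraries. DSG1 and DSC1 are not analysed here.

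**Figure D4:**
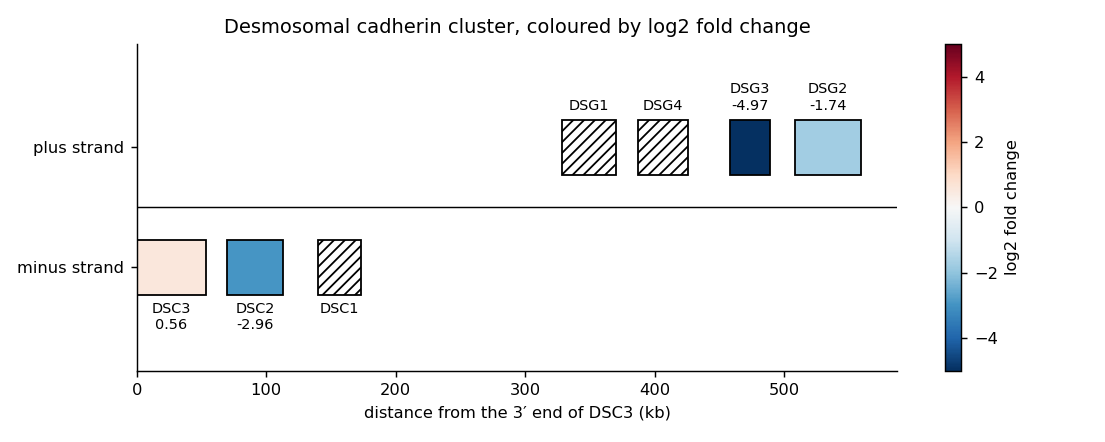
Map of the desmosomal cadherin cluster, with distance from the 3′ end of DSC3 in kb on the horizontal axis and the strand on the vertical axis. Boxes are coloured by log2 fold change, depleted minus control, from -4.97 for DSG3 to 0.56 for DSC3, and hatched boxes are genes that were not tested.

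Promoter sequences were taken from RefSeq (GRCh38.p14) as windows from 250 bases before to 50 after a start site, and 8 of the 10 members had a window. Shown here are those of the 4 cadherins, which the ratios compare, and of DSP, each read 5′ to 3′ on the strand of the gene. Capitals mark the E-box CACCTG on either strand (CAGGTG is the same site read on the other strand), the letters to which SNAI and ZEB factors are known to bind. Positions count from the start site as +1. The window of DSG3 is chr18:31447491-31447790 on the plus strand.
DSG3: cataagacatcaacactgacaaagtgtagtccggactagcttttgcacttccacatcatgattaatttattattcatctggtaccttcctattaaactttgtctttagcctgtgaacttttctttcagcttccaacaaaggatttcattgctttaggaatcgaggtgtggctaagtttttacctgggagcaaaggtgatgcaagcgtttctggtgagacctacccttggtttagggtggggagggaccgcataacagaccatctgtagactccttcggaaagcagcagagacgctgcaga
The window of DSG2 is chr18:31497927-31498226 on the plus strand.
DSG2: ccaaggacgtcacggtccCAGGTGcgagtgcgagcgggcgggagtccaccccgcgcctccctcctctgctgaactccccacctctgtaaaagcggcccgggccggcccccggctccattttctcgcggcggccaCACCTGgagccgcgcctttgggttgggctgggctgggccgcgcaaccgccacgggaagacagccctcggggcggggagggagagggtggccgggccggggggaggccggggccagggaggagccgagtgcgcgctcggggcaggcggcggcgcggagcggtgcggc
The window of DSC2 shown, from 1 of its 2 start sites, is chr18:31102372-31102671 on the minus strand.
DSC2: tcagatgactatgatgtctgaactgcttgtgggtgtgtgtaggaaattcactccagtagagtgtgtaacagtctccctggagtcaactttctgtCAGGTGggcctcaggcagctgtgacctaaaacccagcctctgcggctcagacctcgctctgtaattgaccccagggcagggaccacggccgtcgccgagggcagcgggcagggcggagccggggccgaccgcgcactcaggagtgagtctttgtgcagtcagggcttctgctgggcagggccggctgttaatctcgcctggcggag
The window of DSC3 is chr18:31042693-31042992 on the minus strand.
DSC3: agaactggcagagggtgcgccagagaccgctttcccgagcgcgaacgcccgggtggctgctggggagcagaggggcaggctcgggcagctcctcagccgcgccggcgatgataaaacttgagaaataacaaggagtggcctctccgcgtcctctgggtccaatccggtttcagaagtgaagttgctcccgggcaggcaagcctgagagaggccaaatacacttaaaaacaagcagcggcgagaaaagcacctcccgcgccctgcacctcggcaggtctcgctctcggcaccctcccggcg
The window of DSP is chr6:7541421-7541720 on the plus strand.
DSP: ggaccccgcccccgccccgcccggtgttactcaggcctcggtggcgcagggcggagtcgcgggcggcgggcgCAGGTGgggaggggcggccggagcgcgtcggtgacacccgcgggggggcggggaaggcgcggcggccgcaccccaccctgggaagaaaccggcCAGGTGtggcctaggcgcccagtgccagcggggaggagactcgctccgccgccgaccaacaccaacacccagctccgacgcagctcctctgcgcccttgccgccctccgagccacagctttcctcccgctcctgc

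The E-box stood at -232 and -116 in DSG2, at -178 and -85 in DSP and at -156 in the DSC2 window shown, and none was found in the windows of DSG3 and DSC3 or at the other start site of DSC2. JUP, whose level was not called, had E-boxes at -54 and -43 in the window of 1 of its 2 start sites and none at the other. The windows of PKP1 and PERP had none. Of the members with an E-box, DSG2 was called, and DSP, DSC2 and JUP were not. DSP and DSC2 were nevertheless lower in every depleted library than in every control. DSG3 was called and its window had none. Whether the E-box bears on these levels was not tested. These letters occur in 20.6% of 35116 RefSeq windows of the same length. The window of DSG3 also differed in base composition. Its GC content was 44% with 6 CpG dinucleotides, against 76.7% and 36 for DSG2, while the median of all windows was 58.7%. The RUNX motif TGTGGT (13.1% of all windows) and the Grainyhead-like motif AACCGGTT (0.134%) were searched on both strands and had no match in any member's window. A match describes letters in the window and says nothing of binding, and no match says only that the letters are not in this window.

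Among the armadillo proteins that join the cadherins to desmoplakin, none was called. JUP encodes plakoglobin, which also serves in adherens junctions. It was at 4039, 4732 and 4347 normalized counts in controls and at 2566, 5791 and 6375 in depleted libraries. The controls were close together and lay within the range of the depleted libraries, and the difference was 0.06 on the log2 scale (SE 0.39, 95% interval -0.83 to 0.95, limma adjusted p = 0.959). Depleted replicate 1 lay below every control and depleted replicates 2 and 3 above every control. Without depleted replicate 1 the difference was 0.48 (adjusted p = 0.521, limma). JUP (ENSG00000173801.15) lies on chromosome 17 (41754604 to 41786931, minus strand).

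The plakophilins PKP1, PKP2 and PKP3 gather desmosomal proteins at the membrane, and PKP2 is the form of simple epithelia and heart. PKP2 (ENSG00000057294.12, chromosome 12, 32790745 to 32896798, minus strand) stood at 767, 1035 and 400.4 normalized counts in controls and 713, 1022 and 1234 in depleted libraries, a difference of 0.50 on the log2 scale (95% interval -0.42 to 1.42, limma adjusted p = 0.563). PKP3 (ENSG00000184363.8, chromosome 11, 392614 to 404908, plus strand), found in most epithelia, stood at 1564, 2785 and 1245 in controls and at 493.3, 978.9 and 1344 in depleted libraries. Both genes overlapped between conditions. Without depleted replicate 1 the log2 fold change of PKP2 was 0.72 (adjusted p = 0.474, limma). The log2 fold change of PKP3 was -1.02 (SE 0.45, limma adjusted p = 0.249), and -0.61 without depleted replicate 1. PKP1 (ENSG00000081277.10, chromosome 1, 201283452 to 201332993, plus strand), which is abundant in suprabasal epidermis, had 3, 6 and 7 reads in controls and 1, 9 and 5 in depleted libraries, so that a difference was not detectable at this depth.

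DSP encodes desmoplakin, the plakin that anchors keratin to the junction. It was measured at 31201, 14059 and 26545 normalized counts in controls and at 4348, 11249 and 8090 in depleted libraries, or 23935 ± 8864 against 7895 ± 3455 (SD, n = 3 each). The groups did not overlap, with 14059 and 11249 as the nearest values. The log2 fold change was -1.63 (SE 0.48, 95% interval -2.73 to -0.52), and the limma adjusted p of 0.0933 did not pass. Without depleted replicate 1 it was -1.25 (adjusted p = 0.233, limma). DSP (ENSG00000096696.12) lies on chromosome 6 (7541338 to 7586714, plus strand) in 24 exons. Its antisense gene DSP-AS1, which overlaps the start of DSP on the other strand, was at 11.3, 19.3 and 12.8 normalized counts in controls and 16.5, 14.4 and 20.1 in depleted libraries. Libraries were strand-specific, but the strand setting of the counting is not given in the sources used here.

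PERP, a tetraspan membrane protein of desmosomes whose gene is a known target of p53 and p63 (ENSG00000112378.11), lies on chromosome 6 (138088505 to 138107419, minus strand) and has 3 exons. It was at 31191, 16014 and 12686 normalized counts in controls and at 4305, 14364 and 14178 in depleted libraries. Depleted replicate 1 alone lay under the controls. The log2 fold change was -0.95 (SE 0.57, 95% interval -2.26 to 0.36, limma adjusted p = 0.419), and -0.37 without that library. The ratio of JUP to DSP was higher in depleted libraries by 1.69 on the log2 scale with no overlap (exact permutation test, p = 0.1, adjusted 0.175), and that of PERP to DSP by 0.68 with overlap (exact permutation test, p = 0.3, adjusted 0.35). Without depleted replicate 1 these differences were 1.73 and 0.87. The ratios of PKP1 to PKP2 and of PKP3 to PKP1, which rest on the few reads of PKP1, gave exact p-values of 0.6 and 0.2 by permutation (0.6 and 0.28 adjusted).

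Count models were also fitted to the whole reads recovered from the table. The quasi-likelihood test of edgeR called DSG2 (adjusted p = 0.0439) and DSG3 (0.0231), where it called 1.70% of all genes lower. DESeq2 called DSP (adjusted p = 0.0103), DSG2 (1.9e-04), DSG3 (1.1e-08) and DSC2 (0.00179), where it called 5.09% of all genes lower.

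In level per kb of transcript, PERP came first in both conditions (mean 4755 normalized counts per kb in controls and 2608 in depleted libraries). The order after it in controls was DSG3 (4232), DSG2 (2577), DSP (2468), DSC2 (1716), JUP (1248), PKP3 (662), DSC3 (325), PKP2 (174) and PKP1 (0.886). Neighbours in this order overlapped between libraries except JUP and PKP3, and PKP2 and PKP1. In depleted libraries the order was PERP, JUP (1401), DSP (814), DSG2 (761), DSC3 (405), PKP3 (333), DSC2 (282), PKP2 (234), DSG3 (176) and PKP1 (1.13). There all neighbours overlapped except DSG3 and PKP1. DSG3 moved from second to ninth place and JUP from sixth to second, also with coding length.

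Depleted libraries were unequal. As a percentage of the control mean, the median of the 9 tested genes ran 21.6%, 52.5% and 71.0% over depleted replicates 1, 2 and 3. DSG3 was at 0.709%, 7.39% and 4.35%, so it was low in each of them, whereas PERP was at 21.6%, 72.0% and 71.0%. Controls were unequal as well, and control replicate 1 was the highest control for 6 of the 9 genes. PERP stood at 156%, 80.2% and 63.5% in controls, so its depleted replicates 2 and 3 lay within the control range. Depleted replicate 1 was the lowest depleted library for 5 of the 6 other epithelial genes in the plot of percentages (CDH1, KRT5, TP63, GRHL1 and GRHL2), but not for KLF5, at 53.8%, 47.4% and 39.2%. Nor was it lowest for every gene of the lists. KRT14 (980.3, 193.4 and 306.3 normalized counts in depleted replicates 1, 2 and 3), PPL (20014, 8104 and 8320) and ITGB4 (13337, 7270 and 5894) were highest in it. CDH1, which encodes E-cadherin, was at 3.96% of the control mean in depleted replicate 1 and at 86.1% and 85.3% in replicates 2 and 3. TP63, the master regulator of basal epithelium, was at 1.10%, 8.67% and 5.68%, below every control in each depleted library as DSG3 was. Its controls stood at 36.2%, 48.0% and 216% of their mean, so control replicate 3 raised the base of these percentages. The depleted values of TP63 rest on 9, 99 and 19 reads.

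**Figure D5:**
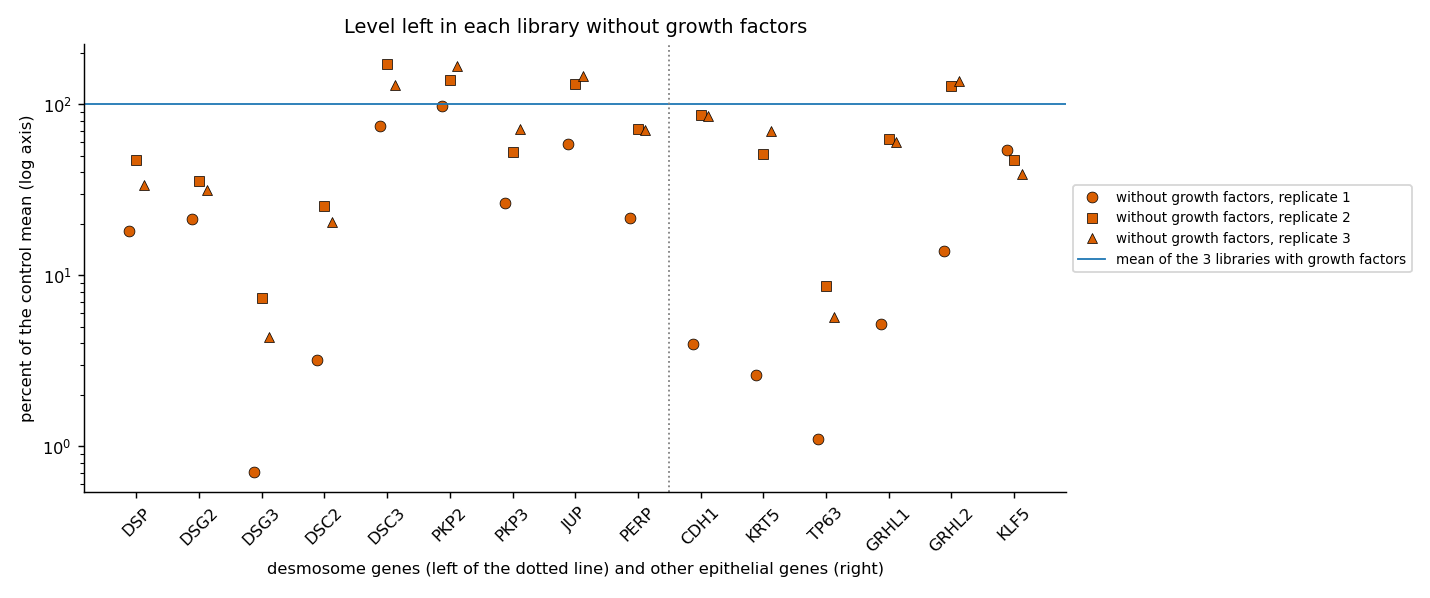
Level in each depleted library as a percentage of the control mean (log axis), for the 9 tested desmosome genes and 6 other epithelial genes, with a symbol for each replicate. Depleted replicate 1 lies at 3.96% for CDH1 and 2.62% for KRT5 while replicates 2 and 3 lie above 50% for both, and DSG3 and TP63 are below 9% in all 3. Single controls, not drawn, lie at 59.5% to 180% for KRT5 and at 36.2% to 216% for TP63.

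Other genes of the junction and its partners were counted from lists, where 1.97% of all tested genes were called lower and 6.33% in either direction. Of the other desmosomal proteins only PKP4 was tested, which differed by 0.02 on the log2 scale (adjusted p = 0.985), and its pseudogene PKP4P1 was listed at 27.5 to 47.5 normalized counts. Of 7 plakins and plakin partners 1 fell, EVPL, which encodes envoplakin of the cornified envelope (log2 fold change -2.14, limma adjusted p = 0.00778). MACF1 (1.34), EPPK1 (1.07) and KAZN (-1.0) did not pass. Of 4 basal keratins, the filaments that desmoplakin anchors, KRT15 fell (-3.0, limma adjusted p = 0.0201), while KRT14 (2.69), KRT17 (2.44) and KRT5 (-2.04) did not pass. None of the 5 adherens junction genes passed, CDH1 (-1.67), CDH3 (-1.30) and CTNNB1 (1.09) among them. The medians of these 3 larger lists were -0.01, 0.20 and -0.20, against -1.02 for the desmosome genes, all with depleted replicate 1 included.

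Regulators of epithelial genes were counted in the same way, against the same 1.97% of all tested genes called lower and 6.33% in either direction. Of 7 tested epithelial regulators TP63 fell (log2 fold change -4.18, limma adjusted p = 0.0270), and GRHL1 (-1.87), OVOL1 (-1.41) and KLF5 (-1.10) did not pass. ZNF750 is not analysed here. Among 6 transcription factors of epithelial to mesenchymal transition, which are known to repress epithelial genes, ZEB1 rose (4.06, limma adjusted p = 0.00488) and SNAI1 fell (-3.14, limma adjusted p = 0.0079), and TWIST2 (2.07) and SNAI2 (1.46) did not pass. ZEB1 was at 23.8, 23.4 and 48.2 normalized counts in controls and at 1087, 436 and 292.9 in depleted libraries. Of 6 genes for proteases and a kinase linked to desmosome turnover, KLK8 fell (-3.66, limma adjusted p = 0.0287) and KLK7 (-2.55) did not pass. The median log2 fold changes of these lists were -1.10, 1.08 and -0.72.

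Markers of other cell types were counted as well. Of 7 fibroblast markers 6 rose, where 6.33% of all tested genes were called in either direction and 1.97% were called lower. All 7 had every depleted library above every control. The share of all genes in that state was not computed, and 12.1% were in the opposite one, with every depleted library below every control. LUM (10.39), COL1A2 (7.19), COL3A1 (7.19) and PDGFRB (6.79) had the largest log2 fold changes of these markers, and their median was 6.79. The 7 fibroblast markers summed to 225 to 451 normalized counts in controls and 9950 to 33375 in depleted libraries, and LUM was at 0 in control replicate 2. One of 6 basal markers, TP63, and 1 of 7 tested luminal markers, KRT19 (-2.31, limma adjusted p = 0.0196), fell. The basal sum was 42262 to 157207 and the luminal sum 17393 to 31625 in depleted libraries. These sums were weighted to a few abundant keratins. In depleted replicates 1, 2 and 3 KRT17 alone was at 19236, 61385 and 123480, and TP63 at 8.2, 64.9 and 42.5. KRT8 was at 7755, 11928 and 19305 there, and ESR1 at 4.6, 32.8 and 24.6. Endothelial markers summed to 167 to 1787 in controls and 265 to 1610 in depleted libraries, and 1 of the 3 tested, CDH5, rose (3.37, limma adjusted p = 0.0282). The other two did not pass. KDR, at 0 in depleted replicate 1, had a log2 fold change of -3.83 with no overlap between conditions (limma adjusted p = 0.193), and PECAM1 had 0.09 (limma adjusted p = 0.981). Leukocyte markers summed to 9.37 to 26.3 and 13.4 to 23.6, with PTPRC at 0 in control replicate 2, and LYZ, the tested one, did not pass (-1.09, limma adjusted p = 0.484). The part of these markers in the desmosome values was not tested.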

How the data were processed

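Total RNA of MCF10A cells had been depleted of ribosomal RNA, and stranded libraries were sequenced as single-end reads of 100 bases. For the deposited signal (normalized counts), the authors used cutadapt 1.6 for trimming, TopHat2 with hg38 for alignment and HTSeq 0.6 with Gencode v22 for counting, then scaled each library by its size factor from DESeq2 1.8.1 (R 3.2.0), per the submitters' processing notes and the study's methods. Each listed gene has at least 3 reads in at least 3 libraries. Whole reads were recovered from all values within a tolerance of 0.01 and used for count models.

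Gencode v44 named 18913 of the 19198 genes and gave coordinates and lengths. Genes averaging 10 or more over the libraries (16988) were tested with limma 3.58.1 (R 4.3.3; lmFit, eBayes with trend) on log2(normalized count + 1), Benjamini-Hochberg adjusted over all, at 0.05. This scale understates changes of low genes. Alternatives included edgeR 4.0.16 and DESeq2 1.42.0. Ratios of members were tested by two-sided exact permutation in Python 3.11.15 with scipy 1.17.1.

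Members and lists were chosen with earlier results of these data known, and 1 gene of the epithelial regulator list is not reported here. From each list at most 4 genes are named, called ones first and then by size of change, with all 10 members and the 5 genes of nearest profile. The design text gives 2 replicates, and the labels list 3, which were used. PERP and PKP4 have pseudogene copies between which the counting could split reads.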

Additional observations from a re-analysis of the deposited data

How the results depend on the processing

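DSG3 was called under all 18 alternatives. Of 162 fold changes of tested members under these alternatives, 144 kept direction and side of the threshold, 5 became called, 8 lost the call and 5 changed sign. The cause was not tested. The count of 2 members called became 1 with eBayes without trend (1.39% of all genes called lower) and with the length and GC correction plus replicate block (1.53%), and 4 with DESeq2 (5.09%) and with the length and GC correction (3.35%), against 1.97% in the fit reported, the corrections being chosen after seeing the data. With 1 library left out the count was 2 without control replicate 3, where 7.23% of all genes were called lower. It was 1 in each other fit of this kind, where 0.737% to 1.51% were called lower. DSG2 was not called in 8 alternatives, among them eBayes without trend (limma adjusted p = 0.0503), the replicate block (0.0813) and 5 of the 6 fits with 1 library left out (up to 0.118). DSC2 was called with the replicate block (0.0376), DESeq2 (0.00179) and the length and GC correction (0.0397), and DSP with DESeq2 (0.0103) and that correction (0.0352). JUP was -0.10 with the length and GC correction, with or without replicate block. With 1 library left out JUP ran from -0.18 to 0.48, DSC3 from -0.15 to 1.10 (negative without control replicate 2) and the difference of the log2 ratio of PKP1 to PKP2 from -0.97 to 0.12.

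Over all genes, limma called 1076, DESeq2 2183, and limma with the length and GC correction plus replicate block 705. With 1 library left out the count was 2619 without control replicate 3, 645 and 681 without control replicates 1 and 2, and 445 and 459 without depleted replicates 2 and 3. The replicate block called DSG3 and DSC2 but not DSG2, with 967 genes called in all. Same-numbered libraries correlated at -0.073, -0.28 and -0.32 after removal of group means, so the numbers were not taken as pairs. Low reads left PKP1 and DSG4 untested.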

Other observations

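The mean profile of the 9 tested desmosome genes over the 6 libraries (centred log2 values) was 1.15, 0.44 and 0.43 in controls and -1.67, -0.11 and -0.25 in depleted libraries. Among 11679 other genes averaging 100 or more normalized counts, those with the smallest root mean square difference from it were TIGD2 (0.13), FGD4 (0.15), LY75 (0.19), CLDN12 (0.20) and KIF21A (0.21), given as a description over 6 libraries. CLDN12, which encodes a claudin, stood at 2520, 1537 and 1320 normalized counts in controls and at 470, 1103 and 859 in depleted libraries. None of the 5 genes passed limma, with adjusted p-values from 0.077 to 0.231.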
